A study of Mus musculus with 18 samples.

Results

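Collagen chain genes were followed in the livers of mice on 3 diets. A collagen chain gene was any gene whose symbol is Col, a type number, the letter a and a chain number, such as Col1a1, and that was read by a probe set paired with exactly 1 symbol. There were 42 such genes among 18193 genes on the arrays, of which 11 were fibrillar, 6 were basement membrane (type IV) and 25 were of other classes. The brightest of a gene's probe sets stood for it. Mean levels of 28 chains were at or above the 25th percentile of all genes (log2 4.564), and these are called measured. Of the measured chains 8 were fibrillar, 4 basement membrane and 16 other. The other 14 chains were too dim to test.

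Livers came from male C57BL/6J mice, obtained at 5 weeks of age and fed for 20 weeks. The control group ate AIN93G, a purified rodent diet. The Western group ate a Western-style diet with 39.9% of its energy from fat and 34.0% from sucrose, made with 20% butter, 1% soy oil and 0.15% cholesterol. The Western with quercetin group ate that diet with 0.05% quercetin, a plant flavonol. The labels name no genetic change in these mice. None of the arrays was of quercetin in the control diet. Each group had 6 arrays with the RNA of 1 mouse each, though control arrays 4 and 5 are counted as 1 mouse below. Mice were kept 3 to a cage without a label saying which shared one. The p values measure the spread between these mice only.

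Collagens are built from 3 chains wound into a triple helix. The fibrillar types form the tensile fibres of tissue, type IV forms the sheet of basement membranes, and type VI forms beaded filaments beside cells. Collagens called FACIT decorate fibril surfaces, while multiplexins sit near basement membranes and transmembrane collagens are anchored in the cell surface. In a healthy liver collagen is sparse. In fibrosis, types I and III accumulate, laid down mainly by activated hepatic stellate cells and portal fibroblasts.

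Median intensities of the 18 arrays ran from 12.7 to 23.2. The values of control arrays 4 and 5 were nearly the same (correlation 0.999669, where the next closest pair of arrays had 0.995938), so their mean was counted as 1 control mouse, which left n = 5. Levels below are log2(intensity + 16) after quantile normalization, and a fold is a ratio of intensity + 16, which understates the change of a dim gene. Levels of different probe sets cannot be ranked against each other. Hepatocyte transcripts that define liver were bright, with albumin (Alb) at a mean of 13.08 in control and 13.06 in Western livers. The log2 ratio of the 3′ to the 5′ actin probe sets, a measure of RNA integrity, was 0.687 ± 0.056 (SD, n = 5) in control, 0.544 ± 0.110 (SD, n = 6) in Western and 0.554 ± 0.078 (SD, n = 6) in quercetin livers. That ratio moves with diet. Collagen chains whose call on the Western diet is lost with the ratio as a covariate are named below, and its part in the values of pairs, lists and markers was not tested.

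All 42 symbols matched the RefSeq gene table with the same gene identifier, and 33 had a window in the RefSeq promoter table (build GRCm38), which runs from 250 bases before the start of transcription to 50 after it. The 250 bases before the start are shown for 3 fibrillar chains, Col1a2 and Col3a1, which rose on the Western diet, and Col5a3, which did not. Capitals mark 3 short promoter motifs found on either strand, with no overlap between them. One is GGGCGG, the core of a GC box. Another is the TATA box letters TATAAA. The last is CCAAT, the motif of that name. The sequences are written 5′ to 3′ along the gene's strand.
Col1a2, chr6:4505368-4505617, plus strand: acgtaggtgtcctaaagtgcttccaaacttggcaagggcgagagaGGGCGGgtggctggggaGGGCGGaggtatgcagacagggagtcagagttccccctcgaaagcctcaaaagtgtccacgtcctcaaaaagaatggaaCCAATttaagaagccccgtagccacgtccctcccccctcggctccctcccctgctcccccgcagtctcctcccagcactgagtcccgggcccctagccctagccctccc
Col3a1, chr1:45311288-45311537, plus strand: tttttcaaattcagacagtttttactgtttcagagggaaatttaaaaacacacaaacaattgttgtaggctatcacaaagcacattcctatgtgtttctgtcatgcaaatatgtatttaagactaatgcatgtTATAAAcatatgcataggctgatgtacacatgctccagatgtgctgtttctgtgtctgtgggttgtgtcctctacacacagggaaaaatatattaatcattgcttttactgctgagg
Col5a3, chr9:20815068-20815317, minus strand: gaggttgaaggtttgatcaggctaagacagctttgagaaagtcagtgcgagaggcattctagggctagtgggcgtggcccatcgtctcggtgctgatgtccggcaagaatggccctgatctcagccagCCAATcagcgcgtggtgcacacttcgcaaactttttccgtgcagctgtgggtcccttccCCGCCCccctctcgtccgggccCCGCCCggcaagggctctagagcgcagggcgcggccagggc
The Col1a2 stretch held 1 CCAAT and 2 GC boxes, the Col3a1 stretch only a TATAAA, and the Col5a3 stretch 1 CCAAT and 2 GC boxes. A gene with several windows was counted as holding a motif if any of its windows held it. Over the whole windows, GGGCGG was held by 63.6% of the 33 collagen genes with a window and 38.2% of all 27025 genes with one. Among the 7 chains with a window that rose it was in 57.1%, and among the 16 measured chains with a window that did not pass the test in 75.0%. CCAAT was held by 39.4% of these collagen genes and 41.1% of all genes with a window, and TATAAA by 15.2% and 15.7%. These matches describe letters and are not binding sites. Col4a1 and Col4a2 lie head to head on chromosome 8, on opposite strands, with start sites 21 bases apart and 78 bases of window in common. Col4a5 and Col4a6, also head to head, start 1343 bases apart on chromosome X.

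On the Western diet against the control diet, 5 fibrillar, 2 type IV and 3 other chains rose, and no collagen chain passed the test as lower. Col3a1 and Col1a1, the main chains of type III and type I fibres, were 3.63-fold and 3.45-fold higher. Of the 28 measured chains, 10 rose, 0 fell and 18 did not pass (limma, adjusted p under 0.05 over 13645 genes). Over all genes 8.65% changed and 5.49% rose. A further 5 chains had an unadjusted p under 0.05 only, with Col4a5, Col6a2 and Col23a1 higher and Col5a3 and Col13a1 lower. In all, 15 of the 28 chains met that unadjusted threshold, beside 3181 of the 13645 genes. By class, the 10 that rose were 5 of 8 fibrillar, 2 of 4 basement membrane and 3 of 16 other chains. The median log2 difference was 0.71 over fibrillar, 0.52 over basement membrane and 0.01 over other chains, against -0.01 over all genes tested. Mean levels of the other chains ran from 4.62 (Col23a1) to 10.65 (Col18a1), and those that rose were at 6.10, 6.77 and 8.44. As the added 16 understates the change of dim chains, the class medians were not compared at like level. Groups did not overlap for 8 of the 28 chains, all higher on the Western diet, where 4.17% of all genes were higher without overlap.

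**Figure D1:**
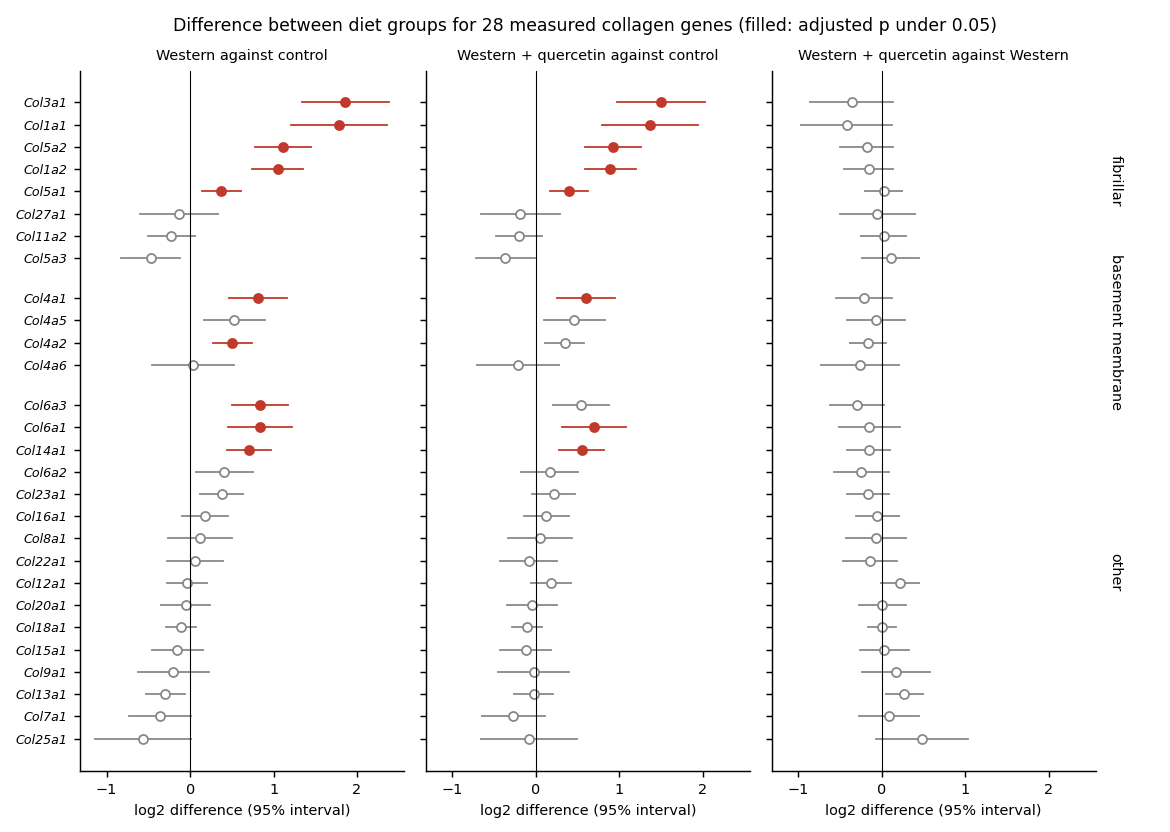
Log2 difference between diet groups for the 28 measured collagen genes, sorted within fibrillar, basement membrane and other classes, with 95% intervals from limma; filled points have adjusted p under 0.05. Against control 10 chains are filled for the Western diet and 8 for the Western diet with quercetin, all to the right of 0, and none is filled between the Western groups.

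Col1a1 and Col1a2 encode the chains of type I collagen, the commonest fibrillar collagen. Col1a1 was at 4.78, 5.35, 5.07, 5.34 and 4.63 in the control livers, and ran from 6.05 over a median of 6.95 to 7.18 in the Western livers. Every Western liver was above every control liver. Mean levels were 5.03 ± 0.33 (SD, n = 5) on control and 6.82 ± 0.41 (SD, n = 6) on Western diet, with a log2 difference of 1.78 ± 0.27 (SE) with adjusted p = 0.000764 by limma. The deposited intensities of its probe set went from 6.5 to 23.2 in control arrays and from 49.8 to 151.1 in Western arrays, so the signal itself differed by more than the 3.45-fold that the added 16 leaves. Col1a2 was at 6.44, 6.62, 6.46, 6.45 and 6.38 in control livers, the narrowest control spread among the chains that rose (SD 0.09), and from 7.22 over 7.56 to 7.75 in Western livers. The groups were again apart, by a log2 difference of 1.05 ± 0.15 (SE), 2.07-fold, with adjusted p = 0.000362 by limma.

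Col3a1 encodes the single chain of type III collagen, found with type I in the same fibrils. Control livers had 7.98, 8.05, 8.12, 7.80 and 7.19, and Western livers 9.07 at the lowest, 9.71 in the middle and 10.14 at the highest. No value overlapped. The difference was 1.86 ± 0.25 (SE) with adjusted p = 0.000277 by limma. Deposited intensities ran from 100.6 to 234.9 in control and from 487.1 to 1260.2 in Western arrays.

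Type V collagen is a minor fibrillar type that sits in the core of type I fibrils and limits their width, and the differences of its 3 chains had different signs. Col5a2 was at 5.52, 5.15, 4.73, 5.22 and 5.17 in control and from 5.90 over 6.29 to 6.51 in Western livers, apart, with a log2 difference of 1.11 ± 0.16 (SE), 2.16-fold and adjusted p = 0.000481 by limma. Col5a1 was at 6.05, 5.55, 6.18, 5.81 and 6.01 in control and from 6.12 over 6.29 to 6.45 in Western livers. These ranges overlapped, in 1 Western liver. The Col5a1 difference was 0.38 ± 0.11 (SE), 1.30-fold, with adjusted p = 0.0407 by limma, and this call was lost when any of 8 single mice was left out (adjusted p up to 0.110) and with the actin ratio as a covariate (adjusted p = 0.314). Col5a3 lay the other way, at 7.90, 7.98, 8.07, 7.61 and 7.83 in control and from 6.85 over 7.42 to 7.80 in Western livers, a difference of -0.47 ± 0.17 (SE) that did not pass (adjusted p = 0.0932 by limma). The 2 remaining measured fibrillar chains did not pass either: Col11a2, of cartilage collagen, differed by -0.22 and Col27a1 by -0.13.

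In the basement membrane class, Col4a1 and Col4a2, which combine into the type IV molecule found in nearly all basement membranes, both rose. Col4a1 was at 7.68, 7.44, 7.73, 7.34 and 7.13 in control and from 7.95 over 8.35 to 8.52 in Western livers. Col4a2 was at 6.98, 7.0, 7.34, 6.98 and 7.09 in control and from 7.35 over 7.60 to 7.85 in Western livers. Neither pair of ranges overlapped, though the lowest Western Col4a2 value lay just above the highest control value. The log2 differences were 0.81 ± 0.17 (SE) for Col4a1, 1.75-fold with adjusted p = 0.00549, and 0.51 ± 0.11 (SE) for Col4a2, 1.42-fold with adjusted p = 0.00785, both by limma. With the actin ratio as a covariate neither passed (adjusted p = 0.132 and 0.178). Col4a5 and Col4a6, chains of more specialised basement membranes, did not pass: Col4a5 went from 4.71 ± 0.10 (SD, n = 5) to 5.24 ± 0.48 (SD, n = 6), adjusted p = 0.0688 by limma, with the liver of Western mouse 2 at 4.58 below all controls. Col4a6 differed by 0.04. Col4a3 and Col4a4, known from kidney basement membrane, were too dim to test.

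**Figure D2:**
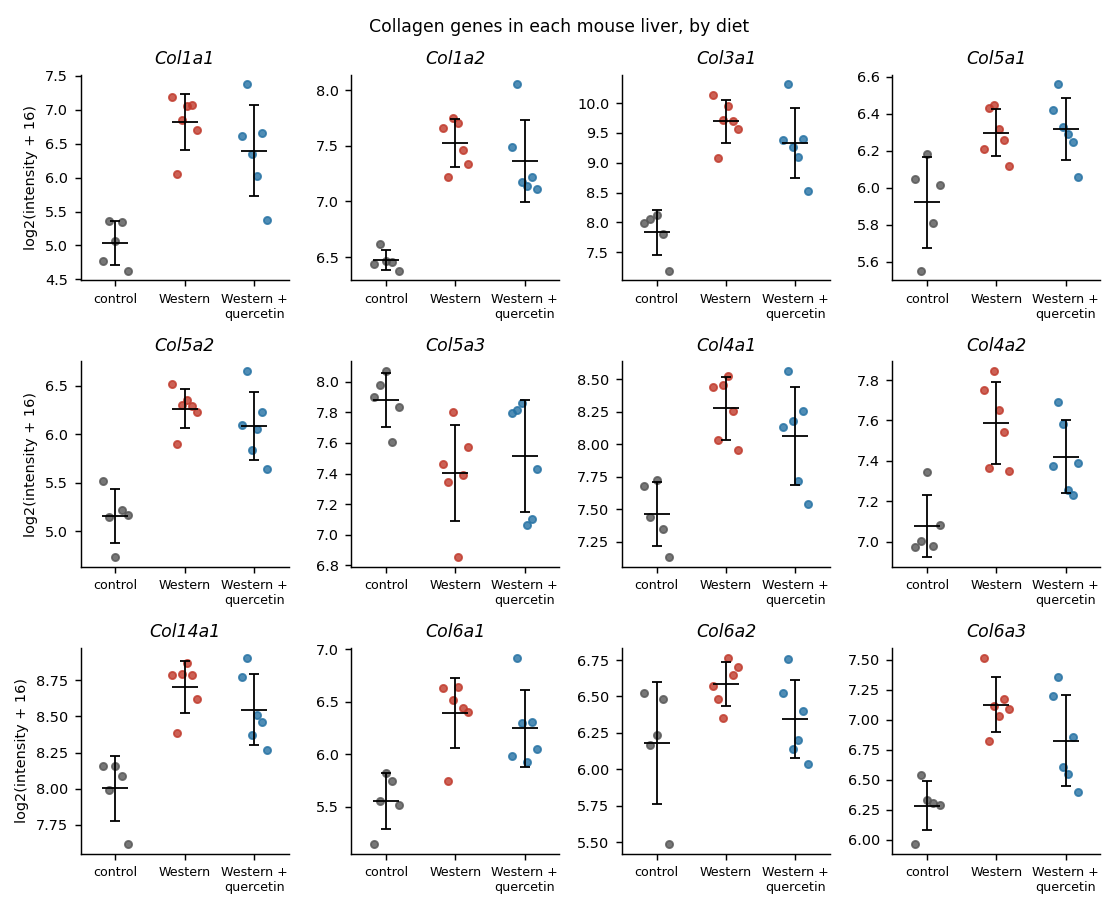
Log2(intensity + 16) of 12 collagen genes in each liver (points), with group mean and SD (bars), for control (n = 5), Western (n = 6) and Western with quercetin (n = 6); the vertical scale differs between genes. Western livers of Col1a1, Col1a2, Col3a1, Col5a2, Col4a1, Col4a2, Col6a3 and Col14a1 all lie above every control liver, and the ranges of Col5a1, Col5a3, Col6a1 and Col6a2 overlap.

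Type VI collagen, a microfilament collagen of connective tissue, is made of 3 chains, and all 3 measured chains were higher on the Western diet, of which 2 passed. Col6a3 was at 5.96, 6.54, 6.33, 6.30 and 6.29 in control and from 6.82 over 7.10 to 7.52 in Western livers, apart, with a log2 difference of 0.84 ± 0.16 (SE), 1.79-fold, adjusted p = 0.00346 by limma. Col6a1 was at 5.14, 5.56, 5.82, 5.74 and 5.52 in control and from 5.74 over 6.48 to 6.64 in Western livers. Western mouse 2, at 5.74, fell within the control range and the other 5 were above it, and the log2 difference was 0.84 ± 0.18 (SE), 1.79-fold, adjusted p = 0.00791 by limma. With the actin ratio as a covariate Col6a1 and Col6a3 did not pass (adjusted p = 0.160 and 0.0639). Col6a2 went from 6.18 ± 0.42 (SD, n = 5) to 6.59 ± 0.15 (SD, n = 6), a difference of 0.41 with adjusted p = 0.133 by limma. Its brightest probe set is of a kind whose probes may match other transcripts, and its other probe set went from 4.82 to 5.90, with adjusted p = 0.0593 over all probe sets.

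Among the 6 measured FACIT chains only Col14a1, which binds the surface of type I fibrils, passed. Col14a1 was at 8.16, 7.99, 8.16, 8.09 and 7.61 in control and from 8.38 over 8.78 to 8.87 in Western livers. The groups were apart, with a log2 difference of 0.70 ± 0.13 (SE), 1.63-fold and adjusted p = 0.00239 by limma. The other FACIT chains differed by -0.04 (Col12a1), 0.18 (Col16a1), -0.05 (Col20a1), 0.06 (Col22a1) and -0.20 (Col9a1), none past the test.

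The remaining classes held no chain that passed. The multiplexins Col18a1, whose end fragment is endostatin, and Col15a1 differed by -0.11 and -0.15. The brightest Col18a1 probe set was at 10.73 in control, 10.61 in Western and 10.62 in quercetin livers, with a 95% interval of the Western difference from -0.29 to 0.07. Its other probe set differed by -0.28 (adjusted p = 0.0891 over all probe sets) for Western and -0.32 (adjusted p = 0.0611) for quercetin against control by limma, neither past the test. The transmembrane chains were split, with Col23a1 at 0.38 (adjusted p = 0.0653), Col13a1 at -0.30 (adjusted p = 0.109) and Col25a1 at -0.57 (adjusted p = 0.225), by limma. Col7a1, the anchoring fibril collagen of skin, differed by -0.36 and Col8a1, a short-chain network collagen of vessels, by 0.12. The 14 chains left out as dim had mean levels from 4.18 to 4.54 and included Col2a1 and Col11a1 of cartilage, Col10a1 of growth plates and Col17a1 of skin. With no filter 0 of those 14 passed the limma test in any comparison. The filter acts on the mean over all livers, and only Col23a1 had a control mean below it (4.41).

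Where a chain that rose had a further probe set that was not dim, that set had a difference of the same sign. The 10 chains had 10 further probe sets, 8 of them at or above the dim threshold. All 8 had a positive difference between Western and control livers, and 6 passed limma adjusted over all probe sets. The sizes could differ. On their next brightest sets Col1a1 changed by 0.52, Col3a1 by 0.91, Col5a2 by 0.47 and Col14a1 by 0.41, all less than on the brightest. Col4a1 changed by 0.78 and Col1a2 by 1.16, near the values above, and Col5a1 by 0.49 and 0.33 on its further sets.

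The rise of 5 chains, Col1a1, Col1a2, Col3a1, Col5a2 and Col14a1, was also called with the actin ratio as a covariate, where 5 chains in all passed and 223 of all genes did in place of 1180. Labels give no array batch, but livers numbered 1 to 3 and 4 to 6 were each also fitted alone: 0 chains passed within numbers 1 to 3 (88 of all genes) and 8 within numbers 4 to 6 (296 of all genes). The difference within numbers 1 to 3 and 4 to 6 was 1.63 and 1.96 for Col1a1, 1.59 and 2.24 for Col3a1, 1.03 and 1.09 for Col1a2, 0.55 and 0.91 for Col14a1 and 0.69 and 1.01 for Col4a1. Each of the 10 chains had a positive difference in both, and the sets were not tested against each other.

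In the quercetin livers the same comparison with the control diet gave 8 chains that rose and 0 that fell, of 28. Over all genes 5.41% changed and 3.43% rose. These were 5 of 8 fibrillar, 1 of 4 basement membrane and 2 of 16 other chains, and all 8 are among the 10 of the Western group, with which they share the control livers. Col1a1 was 2.57-fold (log2 1.36, adjusted p = 0.00660), Col1a2 1.86-fold (adjusted p = 0.00189), Col3a1 2.83-fold (log2 1.50, adjusted p = 0.00204) and Col5a2 1.90-fold (adjusted p = 0.00242) the control level, by limma. Those 4 chains and Col14a1 (1.46-fold, adjusted p = 0.0163) had no overlap with control, as did Col6a1 and Col4a5. That makes 7 of the 28 chains, where 2.55% of all genes were higher without overlap. Col6a1 (1.62-fold, adjusted p = 0.0321), Col5a1 (1.32-fold, adjusted p = 0.0406) and Col4a1 (1.52-fold, adjusted p = 0.0406) also passed by limma. Col4a5 did not pass (adjusted p = 0.142). Col6a3 and Col4a2, which passed in the Western group, had adjusted p = 0.0575 and 0.0760 here.

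This count was less steady than that of the Western group. It was 5 without control mouse 2, 4 without control mouse 6, and 5 without quercetin mouse 2, 3 or 5. It was 3 with the actin ratio as a covariate (Col1a2, Col3a1 and Col5a2), 3 within numbers 1 to 3 (Col1a1, Col1a2 and Col3a1) and 0 within numbers 4 to 6. Col1a2 and Col3a1 were called in 31 of 32 alternative settings in each comparison with control. They were lost within numbers 1 to 3 for Western and within numbers 4 to 6 for quercetin. The settings include leaving out a mouse of the group not compared, which cannot change the log2 difference.

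Between quercetin and Western livers, which isolates quercetin within the Western diet, 0 of the 28 chains passed limma after adjustment, as did 0.00% of all genes. At an unadjusted p under 0.05 there was 1 chain, Col13a1, while 2.87% of all genes met that threshold. Col13a1, a transmembrane chain, was 0.27 higher with quercetin (95% interval 0.05 to 0.49, unadjusted p = 0.0210 by limma), and its value was above the Western mean in all 6 quercetin livers. Means of 17 chains were lower and of 11 higher with quercetin, with a median of -0.07 against -0.01 over all genes tested. Among the chains that had risen on the Western diet, the log2 difference was -0.42 for Col1a1 (95% interval -0.97 to 0.12), -0.36 for Col3a1 (-0.86 to 0.14) and -0.30 for Col6a3 (-0.62 to 0.02). It was -0.21 for Col4a1 (-0.54 to 0.12), -0.16 for Col1a2 (-0.45 to 0.13) and 0.02 for Col5a1 (-0.20 to 0.24). Each of these intervals spanned 0. Over the 28 chains the intervals reached 0.32 to either side at the median and 0.55 at the widest.

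Quercetin livers were more spread than Western livers for the chains that rose most. Col1a1 ran from 5.37 over 6.47 to 7.38 with quercetin, and Col3a1 from 8.52 over 9.32 to 10.32. For both genes the highest of all 17 livers was quercetin mouse 2 and the lowest Western-fed liver was quercetin mouse 6. In Col1a1 the SD was 0.67 with quercetin and 0.41 without, and in Col3a1 0.59 and 0.37. These spreads were not tested against each other. Among livers numbered 1 to 3 the quercetin difference was 0.08 for Col1a1 and 0.01 for Col3a1, and among those numbered 4 to 6 it was -0.93 and -0.74, with no chain past the adjusted threshold in either. The difference between these 2 sets was not tested.

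Chains of 1 molecule, or of 2 classes, were compared within each liver by subtracting log2 values and testing that difference between diets, for 7 pairs with an exact two-sided permutation test and Benjamini-Hochberg adjustment over the 7. In 5 pairs the change on the Western diet was unequal on the brightest probe sets. Col3a1 rose by 1.05 ± 0.13 (SE) more than Col4a1, with exact p = 0.00216, the smallest that 6 against 5 mice allow, and adjusted p = 0.0114. The within-liver difference ran from 1.04 to 1.70 in Western and from 0.06 to 0.61 in control livers, without overlap. Col1a1 rose by 0.97 ± 0.21 (SE) more than Col4a1 (exact permutation p = 0.00433, adjusted 0.0114). On the mean of each gene's probe sets these gaps were smaller, 0.59 for Col3a1 (exact permutation, adjusted p = 0.0189) and 0.35 for Col1a1, which no longer passed (adjusted p = 0.0682).

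Within molecules, Col1a1 rose by 0.73 ± 0.17 (SE) more than Col1a2, and Col5a1 by 0.73 ± 0.22 (SE) less than Col5a2, each with exact permutation p = 0.00649 and adjusted p = 0.0114. Both gaps depended on the probe sets. On the mean of each gene's probe sets they were 0.37 and -0.39 (exact permutation, adjusted p = 0.0101 for both). On the next brightest sets Col1a1 changed by 0.52 and Col1a2 by 1.16, the reverse order. There Col5a1 changed by 0.49 and Col5a2 by 0.47. Col4a1 rose by 0.30 ± 0.11 (SE) more than Col4a2 (exact permutation p = 0.0130, adjusted 0.0182). Col1a1 against Col3a1 differed by -0.08 ± 0.15 (SE), and Col6a1 against Col6a2 by 0.43 ± 0.27 (SE), neither past the exact permutation test (adjusted p = 0.600 and 0.136). Pairs with the dim Col1a1 moved with the pseudocount: at 64, Col1a1 rose by 0.24 more than Col1a2 and 0.33 more than Col4a1 (exact permutation, adjusted p = 0.0505 for both), and the Col1a1 and Col3a1 pair passed (difference -0.66, adjusted p = 0.00758). At a pseudocount of 4 these 3 differences were 1.14, 1.45 and 0.38, and the last did not pass (exact permutation, adjusted p = 0.0833), so the sign of the Col1a1 and Col3a1 difference changed with the pseudocount. Without Western mouse 4 or 5 the Col4a1 and Col4a2 pair was lost (exact permutation, adjusted p = 0.0556), and without control mouse 6 the Col6a1 and Col6a2 pair passed (0.60, adjusted p = 0.0444). With quercetin against without, 0 of 7 pairs passed the exact permutation test, adjusted or not, and the smallest adjusted p was 0.583.

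**Figure D3:**
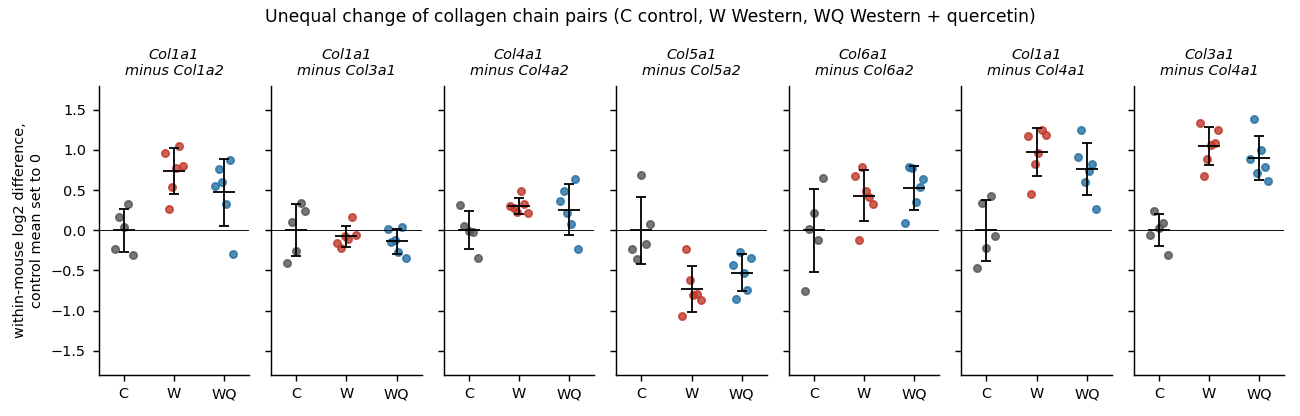
Within-liver log2 difference of 7 chain pairs in control (C, n = 5), Western (W, n = 6) and Western with quercetin (WQ, n = 6) livers, shifted so that the control mean is 0; points are livers and bars show mean and SD. Col3a1 minus Col4a1 lies above 0.5 in every Western liver, and Col5a1 minus Col5a2 lies below 0 in every Western liver.

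From mouse to mouse within the Western diet, Col1a1, Col1a2 and Col3a1 were correlated in the 2 pairs tested. Over the 12 Western-fed livers, after subtracting each group's mean, Col1a1 and Col3a1 had Pearson r = 0.97 and Spearman rho = 0.94 (permutation p = 1e-05 for r, the smallest that 100000 resamples give; adjusted over 7 pairs 7e-05). Without the 2 livers farthest from the median Col1a1 level, Western mouse 2 and quercetin mouse 6, r was 0.94. Col1a1 and Col1a2 had r = 0.81 and rho = 0.80 (permutation, adjusted p = 0.00311), and r = 0.84 without 2 livers. Col4a1 was correlated with both: Col1a1 and Col4a1 had r = 0.89 and rho = 0.81, and Col3a1 and Col4a1 r = 0.88 and rho = 0.90, each with permutation adjusted p = 0.00170 for r, and r = 0.84 and 0.74 without 2 livers. Col4a1 and Col4a2 had r = 0.68 (permutation adjusted p = 0.0288) and rho = 0.58 (permutation adjusted p = 0.0787).

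The type V and type VI pairs did not pass. Col5a1 and Col5a2 had r = 0.43 (permutation adjusted p = 0.212), which became -0.41 without quercetin mice 2 and 6, and was -0.44 among the 6 Western and 0.83 among the 6 quercetin livers. Col6a1 and Col6a2 had r = 0.54 (permutation adjusted p = 0.103) and 0.21 without 2 livers. For Col1a1 and Col3a1, r was 0.95 among Western and 0.98 among quercetin livers taken alone. All 7 relations passed on values as deposited, with medians centred or on the mean of probe sets, against 5 here.

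**Figure D4:**
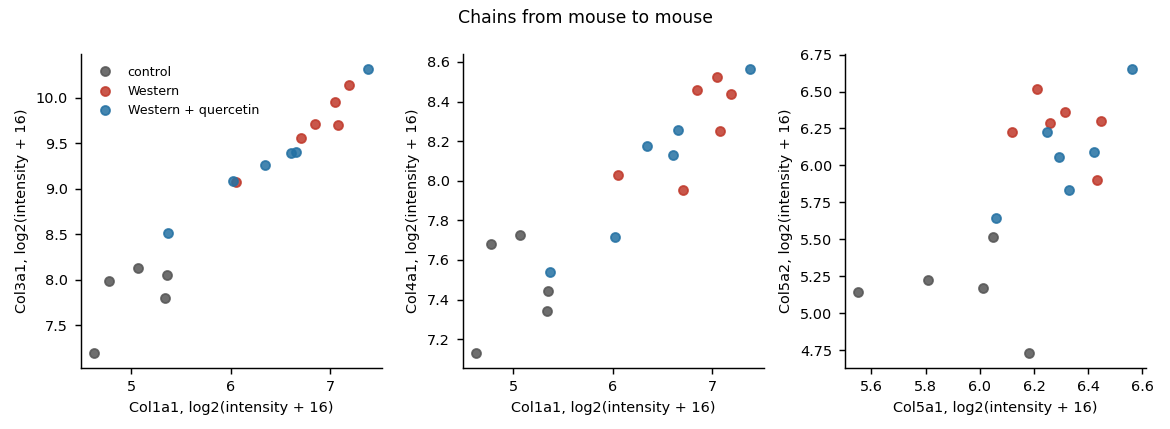
Level of 1 collagen chain against another in each liver, as log2(intensity + 16), coloured by diet (control n = 5, Western n = 6, Western with quercetin n = 6). Col1a1 and Col3a1 lie near a line over the Western-fed livers (r = 0.97 after subtracting group means), and the Col5a1 and Col5a2 pair did not pass (r = 0.43).

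Genes that act on collagen were read from fixed lists. Over all genes, 5.49% rose and 431 of 13645 fell on the Western diet. With quercetin against control 3.43% of all genes rose and 270 fell. Of the folding and modification list, 5 of 15 measured genes rose on the Western diet and 0 fell, with a median of 0.13. They were Serpinh1, the collagen chaperone HSP47 (1.62-fold, adjusted p = 0.0236), P4ha1, a prolyl hydroxylase subunit (1.48-fold, adjusted p = 0.0424), Crtap, of the prolyl 3-hydroxylation complex (1.46-fold, adjusted p = 0.00175), Colgalt1, which adds galactose to hydroxylysine (1.39-fold, adjusted p = 0.00306), and Plod1, a lysyl hydroxylase (1.30-fold, adjusted p = 0.0325), all by limma. With quercetin against control 2 rose and 1 fell, namely Ppib, a prolyl isomerase, by 0.32 on the log2 scale (adjusted p = 0.0436). Of 10 measured genes for collagen secretion 0 rose and 0 fell by limma in each comparison with control, with medians of 0.065 and 0.067. In each, 1 had an unadjusted p under 0.05, beside 3181 of 13645 genes for Western and 2718 for quercetin against control. For trimming and crosslinking, 2 of 7 rose and 1 fell: Pcolce, which aids removal of the procollagen end (1.56-fold, adjusted p = 0.0214), and Loxl1, a crosslinking oxidase (1.46-fold, adjusted p = 0.0125), rose. Bmp1, the protease that trims procollagen, fell by 0.47 on the log2 scale (adjusted p = 0.00242 by limma), and also with quercetin against control, by 0.54 (adjusted p = 0.00161).

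Genes whose proteins lie on or beside collagen gave 5 of 11 fibril-associated and 3 of 14 basement membrane partner genes that rose, and 0 that fell, with medians of 0.46 and 0.22. Beside them, 5.49% of all genes rose. Sparc, a collagen-binding glycoprotein, was 1.92-fold (adjusted p = 0.000466), Postn, periostin, 1.79-fold (adjusted p = 0.00346) and Dcn, decorin, 1.55-fold (adjusted p = 0.00408) the control level by limma, and Tnxb and Thbs1 rose as well. Nid1, which links laminin to type IV collagen, was 2.23-fold (adjusted p = 0.00239) and Lamc1, a laminin chain, 1.41-fold (adjusted p = 0.00297) by limma. Lamb3 also rose (1.30-fold). With quercetin against control, 3 fibril-associated and 2 basement membrane partner genes rose, where 3.43% of all genes did. Between quercetin and Western livers no gene of any list passed after adjustment by limma. At an unadjusted limma p under 0.05 there were 3 in the 8 lists: Tnxb at -0.37, Sparc at -0.32 and P3h1, a prolyl hydroxylase, at -0.28. Over all genes 2.87% met that threshold, so these 3 are not read as an effect of quercetin.

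Of 8 measured collagen receptors, Lair1, an inhibitory receptor of immune cells, rose (1.50-fold, adjusted p = 0.00323 by limma), and with quercetin Lair1 and Ddr2, a receptor kinase for fibrillar collagen, rose. Among 10 degrading enzymes and inhibitors 3 rose and 0 fell: Mmp13, a collagenase (2.11-fold, adjusted p = 0.00400), Timp1 (1.55-fold, adjusted p = 0.0377) and Timp2 (1.39-fold, adjusted p = 0.00930), both metalloprotease inhibitors, by limma. Of 12 genes for TGF-beta and PDGF signalling 3 rose and 0 fell: the receptors Tgfbr2 (1.77-fold), Pdgfrb (1.62-fold) and Tgfbr1 (1.24-fold). Medians were 0.08, 0.28 and 0.31, and 5.49% of all genes rose. With quercetin against control 2, 1 and 1 of these 3 lists rose, where 3.43% of all genes did.

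**Figure D5:**
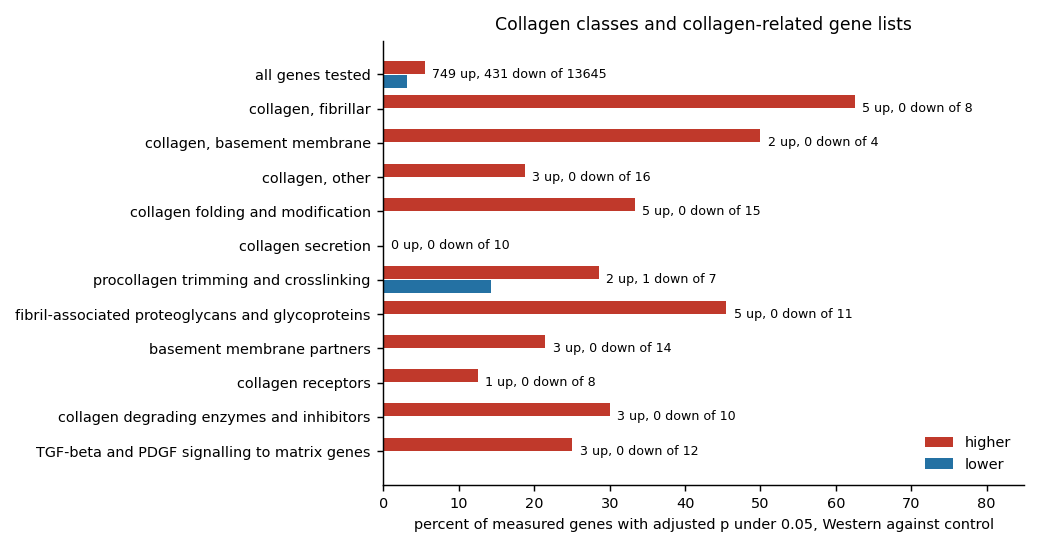
Share of measured genes with adjusted p under 0.05 (limma) in Western against control livers, for the 3 collagen classes, 8 collagen-related gene lists and all genes tested; red bars are higher and blue bars lower, with the counts beside them. Fibrillar chains have 5 of 8 higher and the secretion list 0 of 10, beside 749 higher and 431 lower of 13645 genes.

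Markers of other cell types in the liver were read in the same way, where 5.49% of all genes rose and 431 of 13645 fell. Of 12 hepatic stellate markers 4 rose (Rgs5, Pdgfrb, Cygb and Colec11), 0 fell and 8 did not pass on the Western diet. By sign 9 of the 12 were higher and 3 lower, with log2 differences from -0.20 to 0.80. The summed level of the 12 ran from 2342 to 2551 in control, 2637 to 3447 in Western and 2843 to 3691 in quercetin livers. Such sums weigh the brightest markers of a list most. Of 7 measured portal fibroblast and myofibroblast markers 1 rose (Cd34), while 5 were higher and 2 lower by sign. Their sum ran from 271 to 416 in control and 359 to 398 in Western livers. At an unadjusted limma p under 0.05 there were 7 of the 12 stellate and 4 of the 7 portal markers, beside 3181 of 13645 genes. The median log2 difference was 0.17 over stellate and 0.23 over portal markers, so the 2 lists were not set apart by it. Acta2, smooth muscle actin of myofibroblasts, differed by 0.21 (adjusted p = 0.434 by limma), and the defining portal markers Gli1, Mfap4 and Pi16 were dim. Vascular smooth muscle markers gave 0 of 3 by limma (1 at an unadjusted p under 0.05), cholangiocyte markers 0 of 4 (0 unadjusted), and all 4 mesothelial markers were dim. Of 11 endothelial markers 2 rose (Lyve1 and Vwf), while 9 were higher and 2 lower by sign. Their sums ran from 1709 to 1940 in control and 1829 to 2236 in Western livers.

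Macrophage markers gave 6 of 13 that rose, with sums from 2940 to 3654 in control, 4256 to 7570 in Western and 3522 to 9937 in quercetin livers. These markers did not move as 1: on the Western diet 11 were higher and 2 lower. Their log2 differences ran from -0.83 to 2.49 with a median of 0.45. Of 8 hepatocyte markers 3 fell (Ass1, Tat and Pck1) and sums ran from 42054 to 44917 in control and 37968 to 40684 in Western livers. The part of these cell types in the collagen differences was not tested. In whole liver RNA, more cells of a type and more collagen RNA per cell cannot be told apart.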

How the data were processed

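Liver RNA of each mouse was read on 18 Affymetrix Mouse430_2 arrays. Each deposited value is a linear probe set intensity. How the authors derived it from the scans is not given in the sources consulted. The 64 control probe sets were left out, and the other 45037 were taken as log2(intensity + 16) and quantile normalized. Of these, 34945 were paired with 1 gene symbol, 932 with several and 9160 with none. The 25th percentile filter removed 4548 genes and left 13645.

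Tests used R 4.3.3 and limma 3.58.1: 1 mean per group over 17 samples, contrasts, eBayes, two-sided, Benjamini-Hochberg adjusted over all 13645 genes in each comparison, with 95% intervals. The number of arrays limits the precision. Pairs of chains were compared by exact permutation and correlated with 100000 within-group resamples. Figures used matplotlib 3.10.9 in Python 3.11.15.

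For chains that passed in any comparison and for Col5a3, each control liver and the lowest, median and highest Western value were given. For Col4a5, Col4a6 and Col6a2, the other measured chains of the same types, group means or a difference were given. The collagen genes, classes, lists and markers were chosen with earlier results of these data known. Of 173 list and marker genes, 11 were not found by symbol and 19 were dim. Promoter sequences are from RefSeq (GRCm38).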

Additional observations from a re-analysis of the deposited data

Results flagged for a closer look

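Of 42 combinations of 14 named chains and 3 groups, 1 held a liver far from the rest of its group: Col6a1 in Western mouse 2, at log2 5.74, where the nearest of the other 5 was 6.40, a gap of 0.738 of the group's whole range. Chance alone marks about 1 in 20 such groups. The same mouse had the lowest Western value of Col1a1, Col1a2, Col3a1, Col5a2 and Col14a1. Without it 11 chains rose on the Western diet in place of 10.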

How the results depend on the processing

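The call of 10 chains on the Western diet became 0 within numbers 1 to 3, 8 within numbers 4 to 6 and 5 with the actin covariate, and 9 to 11 when 1 mouse was left out; 14 chains passed without quantile normalization and 11 with each array centred on its median. For quercetin against control the 8 became 3 within numbers 1 to 3, 0 within numbers 4 to 6, 3 with the actin covariate and 4 to 9 without 1 mouse. Within a set of numbers fewer samples were tested; the cause of the other losses was not tested. Over all genes, the 1180 calls of the Western comparison became 3725 as deposited, 88 and 296 within the number sets and 223 with the actin covariate, and the 738 of quercetin against control became 3255, 224, 32 and 155; leaving out 1 mouse gave 748 to 1394 and 460 to 949. As deposited the median of all genes shifted to 0.22, with 3641 higher and 84 lower, against 749 and 431. Between the Western groups 0 chains passed under every setting run. The chain pairs that differed numbered 4 to 6 and the correlated pairs 5 to 7. No chain or pair that passed changed sign in any alternative run. Values that had not passed did: within numbers 1 to 3 the quercetin difference within the Western diet was 0.08 for Col1a1 and 0.01 for Col3a1 in place of -0.42 and -0.36, and Col1a1 less Col3a1 was 0.38 at a pseudocount of 4 in place of -0.08. Correlations of same-numbered samples ran from -0.26 to 0.32 (median 0.13, 16 pairs), against medians of 0.07 for other numbers of the same set and -0.11 across sets; as they were not all over 0.1, the numbers were not taken to pair the mice. With the set as a block 11 and 10 chains passed against control (1524 and 1039 genes); with a replicate block 11 chains passed on the Western diet, 6 for quercetin against control and 0 between the Western groups.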
